A study of Strongylocentrotus intermedius with 6 samples.

Results

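Fatty acid, sterol and lipoprotein genes of coelomocytes, the free cells of the coelomic fluid, were compared between 2 times of day in the sea urchin Strongylocentrotus intermedius. The set was chosen by wording alone. It holds the gene models whose description by the authors names a fatty acid, an acyl-CoA, carnitine, a lipoxygenase, an apolipoprotein, vitellogenin, a lipoprotein receptor, perilipin, a sterol, squalene or hydroxymethylglutaryl-CoA. Descriptions that also named cytochrome P450, polyketides, solute carriers or ion channels were left out. This gave 217 of 30559 gene models, 22969 of which are coding. The rule used no measured value, though earlier results of these data were known when it was set. Both groups consisted of coelomocyte RNA from animals kept under LD, the usual shorthand for alternating light and darkness. The hours of light are not stated by the labels. One group was labelled ZT0 and the other ZT12, where ZT, zeitgeber time, by convention counts hours from lights-on. Each had 3 libraries. The labels give no strain, sex, age or genotype, and do not say whether a library is 1 animal or a pool, so the p-values speak to differences among these 6 samples alone and that spread may be technical. The series title names photoperiod, Cryptochrome1 and immunity. The comparison asks which lipid genes differed between these times.

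As background, animals carry lipids between tissues in lipoproteins built on large lipid-binding proteins, and cells take these particles up through receptors of the low-density lipoprotein (LDL) receptor family. Inside the cell, fatty acids are bound by small carrier proteins, joined to coenzyme A, and then either burned in mitochondria and peroxisomes, stored in droplets coated by perilipins, or lengthened and desaturated into membrane lipids and signalling lipids. Cholesterol is made from acetyl-CoA through mevalonate, squalene and lanosterol in a chain of enzymes that in vertebrates is switched on together by sterol regulatory element-binding proteins. Coelomocytes are the immune cells of echinoderms, and phagocytic cells handle much lipid from what they engulf. The gene names used here come from similarity to other species, so roles given below are those of the named relatives.

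No gene of the set passed the test between the times. Total counts ran from 20229918 to 24368884 per library, and the set took 1.57% to 1.79% of them. Of the 217 models, 163 had enough reads to be tested, and 54 did not. Of those 54, 6 had no count in any library and 49, these 6 among them, stayed under 1 CPM (counts scaled to library size) throughout. With edgeR's quasi-likelihood test and a false discovery rate of 0.05, 0 of the 163 were called, where 24 of 18456 tested genes (0.13%) were called in the whole table, 3 of them higher (0.0163%) and 21 lower (0.114%) at ZT12. At an unadjusted p under 0.05 the set had 6 genes, or 3.68% of those tested, against 7.31% of all genes. Of these 6, 4 were higher and 2 lower at ZT12, with backgrounds of 3.44% and 3.87%. The 3 libraries of one time lay wholly apart from those of the other in 9 of 163 genes (5.52%), against 12.2% of all genes. In 6 of these the ZT12 libraries were above, and in 3 below, with backgrounds of 5.84% and 6.33%. DESeq2 called 2 of the 163 at the same threshold, PLIN2 and a liver-type fatty acid-binding protein gene, where it called 215 genes in all (1.16%). In counts simulated on these libraries, edgeR recovered 0% of 2-fold and 30.6% of 4-fold changes, so differences of that size were mostly not detectable with 3 libraries a time.

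The most abundant of the set, by FPKM (fragments scaled to model length and library depth, so a level per length), were models named for lipoproteins. Whether the proteins they encode carry lipid was not tested. These models were followed by a cholesterol carrier and receptors. LPA (ZJQ016134), named for apolipoprotein(a), the protein that marks human lipoprotein(a), had a mean FPKM of 350.2. The other LPA model (ZJQ009067) had 326, and the Apolipophorins model (ZJQ004894), named for the lipoprotein precursor of insect blood, had 307. NPC2 (ZJQ000622), which binds cholesterol in lysosomes, followed at 184. An LDL receptor gene, ldlr-a (ZJQ005028), had 138. Lrp2 models ZJQ003784, ZJQ014689 and ZJQ003783, relatives of megalin, a large endocytic receptor, had 116, 112 and 96.9. DBI (ZJQ006656), the acyl-CoA-binding protein, had 84.9, the sterol enzyme gene MSMO1 (ZJQ003261) 79.1, the transcription factor gene SREBF1 (ZJQ018337) 76.4 and FABP1 (ZJQ000113), a fatty acid carrier, 58.9. These 12 are all the models of the set at a mean FPKM of 50 or more. In each of the 12 the 2 times overlapped.

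**Figure D1:**
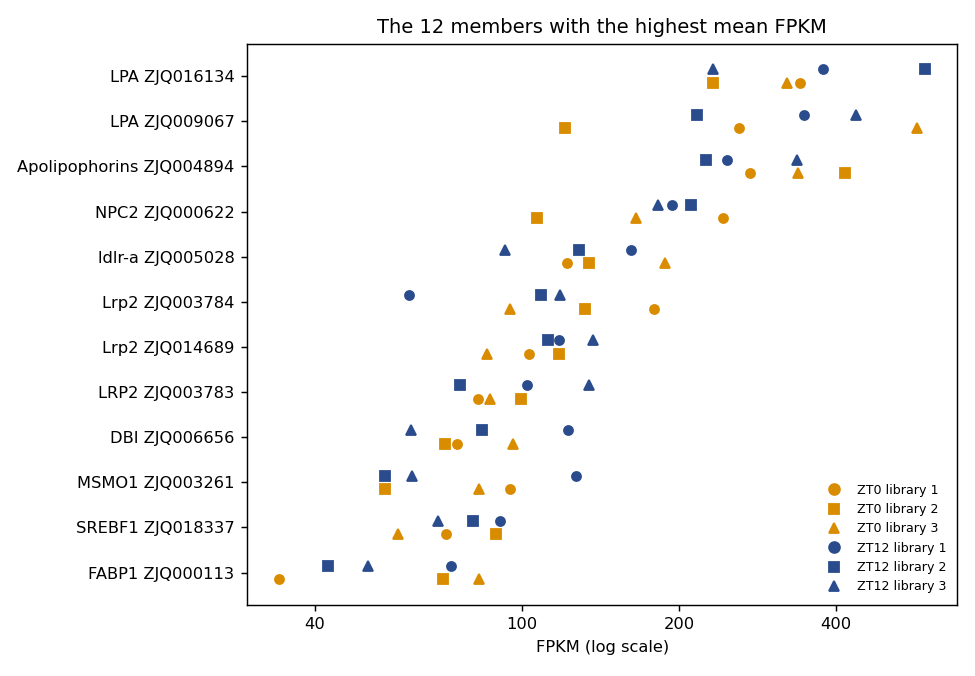
FPKM on a log axis of the 12 most abundant genes of the set, with 1 point per library (orange, ZT0; blue, ZT12; the symbol gives the library number). The libraries of the times overlap in every gene, and the LPA model ZJQ009067 spans the widest range, from 121 to 574 FPKM, with both ends at ZT0.

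Genes named for lipoproteins and yolk proteins held the highest levels of the set, and 1 of the 7 tested, Apob, was at an unadjusted p under 0.05. The Apolipophorins model stood at 3699, 4952 and 4559 CPM in ZT0 libraries 1, 2 and 3, and at 3051, 2675 and 3861 CPM in ZT12 libraries 1, 2 and 3. The highest ZT12 library lay above the lowest ZT0 library, and the log2 fold change (ZT12 minus ZT0 throughout) was -0.46 with a standard error (SE) of 0.24, at an adjusted p of 0.727 by edgeR. The LPA model ZJQ009067 ranged at ZT0 alone from 724 to 3902 CPM and at ZT12 from 1301 to 2541 CPM. A log2 fold change of -0.09 became 0.68 without ZT0 library 3. The LPA model ZJQ016134 reached 3242 CPM in ZT12 library 2 against 1225 to 2139 CPM in the other libraries, with a log2 fold change of 0.30 (SE 0.37).

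Apob, named for the protein of mammalian LDL and chylomicrons, was present as 3 models with consecutive identifiers. The main one, ZJQ005108, had 129, 297 and 182 CPM at ZT0 and 559.8, 262 and 873 CPM at ZT12. ZT12 libraries 1 and 3 were above every ZT0 library and ZT12 library 2 was not. The difference was 1.48 on the log2 scale (SE 0.46), with an adjusted p of 0.52 by edgeR, and 1.02 without ZT12 library 3, where its unadjusted p was 0.0528. The neighbouring model ZJQ005109 had a log2 fold change of 0.89 (SE 0.40), and the low one, ZJQ005110, had 0.67 (SE 0.84). All 3 had their highest value in ZT12 library 3. Models of one name can share reads, so the 3 are not independent. Of gut and digestive enzyme markers, given with the other markers further on, 44 were tested. Their median deviation from each gene's own mean, on a log2 scale, was 0.82 and 0.50 in ZT12 libraries 1 and 3, -0.28 in ZT12 library 2, and -0.82, -0.73 and 0.03 in ZT0 libraries 1, 2 and 3. Their summed level overlapped between the times, at 4013 to 4498 CPM at ZT12 and 3909 to 5369 CPM at ZT0. Most of that sum came from a single model, Trypsin-1 (ZJQ009370), at 3276 to 4400 CPM at ZT0 and 3209 to 3446 CPM at ZT12. Of the 44 tested markers, 35 had a log2 fold change above 0 and 9 below, with a median of 0.94. The part of these markers in the Apob result was not tested.

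Vitellogenin genes, named for the egg-yolk precursor of most egg-laying animals, were represented by 1 fragment model (ZJQ004803) with 29.7 CPM in ZT0 library 3 and 0.57 to 2.21 CPM in the other 5. Its log2 fold change of -2.75 (SE 1.36) became 0.81 without that library. The vitellogenin receptor gene VgR and both apolipoprotein D models were too low to test, one of the latter with no count at all. Of the 10 models in this group 7 were tested, with a median log2 fold change of 0.30 that ranged from -0.30 to 0.68 when 1 library was left out.

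Lipoprotein receptor genes were the most numerous group, with 37 models of which 21 were tested, and their median log2 fold change was 0.03. The smallest p was in an LRP1 model (ZJQ016289), named for a scavenging receptor that binds lipoproteins and protease complexes. It had 177, 75.1 and 42.4 CPM at ZT0 and 24.7, 42.9 and 28.1 CPM at ZT12. The times overlapped, since ZT0 library 3 lay below ZT12 library 2. ZT12 minus ZT0 came to -1.62 on the log2 scale (SE 0.50; adjusted p 0.517 by edgeR), and -0.89 without ZT0 library 1. The authors' FPKM values give this model a length of 1596 bases, and the other LRP1 model (ZJQ018653) had a log2 fold change of 0.22 (SE 0.27). The level of ZJQ016289 was also higher per length, at a mean FPKM of 39.5 against 3.05.

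Lrp4 (ZJQ012090), a receptor of neuromuscular junctions and Wnt signalling in vertebrates, was the other receptor at an unadjusted p under 0.05. It had 0.454, 2.008 and 1.74 CPM at ZT0 and 2.005, 5.46 and 7.04 CPM at ZT12. ZT12 library 1 lay just under ZT0 library 2 and the other ZT12 libraries were higher. ZT12 minus ZT0 was 1.75 on the log2 scale (SE 0.66; adjusted p 0.625 by edgeR), and 0.37 with log2(FPKM + 1). The unadjusted p of 0.0312 became 0.0622 with limma-voom, 0.0722 with log2(FPKM + 1) and 0.108 without ZT12 library 3. Its level was low, at a mean FPKM of 0.301.

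None of the abundant receptor models separated the times. ldlr-a (ZJQ005028), the LDL receptor that takes up cholesterol-rich particles, had 361, 349 and 556 CPM at ZT0 and 437, 335 and 233 CPM at ZT12, with a log2 fold change of -0.33 (SE 0.29). The second ldlr-a model (ZJQ005027) had the opposite sign, 0.40 (SE 0.34). Lrp2 (ZJQ003784) ran from 1442 CPM in ZT0 library 1 down to 446 CPM in ZT12 library 1, with 761 and 932 CPM in the other ZT0 libraries and 769.9 and 809 CPM in the other ZT12 libraries. ZT12 minus ZT0 was -0.63 on the log2 scale (SE 0.32; adjusted p 0.725 by edgeR). The other abundant pair, ZJQ014689 and ZJQ003783, differed by 0.14 (SE 0.18) and 0.10 (SE 0.22). In all, 12 models carried the name LRP2 and 5 were tested, with 2 above 0 and 3 below. LRP6, a Wnt co-receptor (ZJQ012475), had -0.05 (SE 0.19).

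Fatty acid carriers and droplet genes held 3 of the 6 genes at an unadjusted p under 0.05. PLIN2 (ZJQ013563), the perilipin that coats lipid droplets in most cell types, had 46.0, 46.7 and 49.3 CPM at ZT0 and 86.5, 79.2 and 67.6 CPM at ZT12. All ZT12 libraries were above all ZT0 libraries. The log2 fold change was 0.72 (SE 0.18), at an adjusted p of 0.355 by edgeR and 0.0321 by DESeq2. It stayed between 0.64 and 0.81 when any 1 library was left out.

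The fatty acid-binding protein genes, small cytosolic carriers of fatty acids, differed in the sign of their log2 fold changes, 2 above 0 and 3 below among 5 tested of 6. The type 3 model (ZJQ000093) had 0.303, 0 and 1.94 CPM at ZT0 and 49.5, 6.56 and 5.53 CPM at ZT12. It was low or absent at ZT0, and higher in each ZT12 library, most of all in library 1. The fitted difference was 4.84 on the log2 scale (SE 1.25; adjusted p 0.372 by edgeR), 3.08 without ZT12 library 1 and 7.15 without ZT0 library 3. Its unadjusted p of 0.00491 was 0.0659 with limma-voom. Some digestive enzyme markers were distributed in a like way and the most abundant ones were not. An alpha-amylase model (ZJQ004967) had 0, 0 and 5.17 CPM at ZT0 and 58.7, 2.57 and 19.97 CPM at ZT12, and an endoglucanase model, celA (ZJQ024360), had 0.303, 0.214 and 2.49 CPM against 22.2, 1.81 and 7.45 CPM. These 2 were picked after their values were seen. The digestive enzyme marker with the highest mean FPKM, Trypsin-1 (ZJQ009370), had 4319, 3276 and 4400 CPM at ZT0 and 3446, 3345 and 3209 CPM at ZT12, a log2 fold change of -0.26. The next, CPA1 (ZJQ019545), had -0.32, and PNLIPRP3 (ZJQ004914) had -1.78. The part of such markers in the carrier's result was not tested.

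The liver-type model described as fatty acid-binding protein 2 (ZJQ000114) had 5.71, 13.1 and 4.82 CPM at ZT0 and 2.21, 1.57 and 1.96 CPM at ZT12. All ZT12 libraries were below all ZT0 libraries. The log2 fold change was -2.04 (SE 0.52), with an adjusted p of 0.372 by edgeR and 0.0213 by DESeq2, and it was -1.45 without ZT0 library 2. FABP1, with the identifier next to it, had 14.5, 26.4 and 35.0 CPM at ZT0 and 28.4, 15.9 and 18.3 CPM at ZT12, fully overlapping. FABP1 thus had a log2 fold change of -0.28 (SE 0.37). Fabp12 (ZJQ000475) had 103, 66.2 and 107 CPM against 63.0, 65.7 and 67.5 CPM, with ZT0 library 2 inside the ZT12 range and a log2 fold change of -0.49 (SE 0.22).

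**Figure D2:**
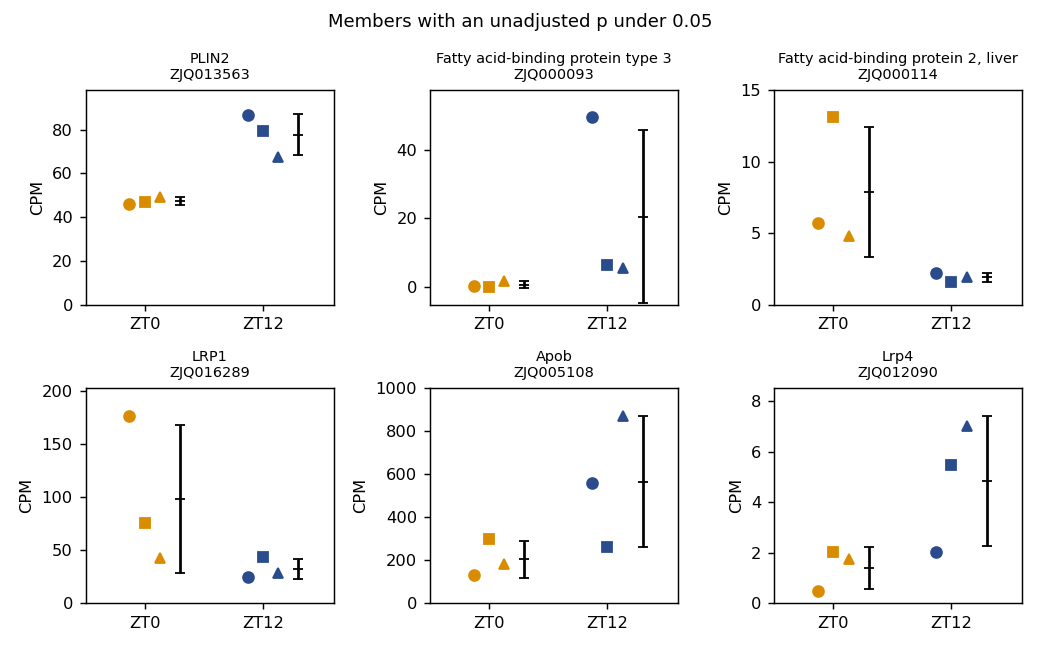
CPM of the 6 genes at an unadjusted p under 0.05, with 1 point per library (circle, square and triangle for libraries 1, 2 and 3) and, beside the points, the mean and SD of each time (n = 3). PLIN2 and both fatty acid-binding proteins separate the times, while LRP1, Apob and Lrp4 overlap; each panel has its own axis, and the SD bar of the type 3 carrier runs below 0.

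Other carriers had overlapping times. DBI had 208, 173 and 266 CPM at ZT0 and 309.5, 205 and 144 CPM at ZT12, with both the highest and the lowest value at ZT12. DBI had a log2 fold change of 0.03 (SE 0.30). The fatty acid uptake gene SLC27A2 (ZJQ012900) had 107, 133 and 122 CPM at ZT0 and 45.5, 112 and 99.3 CPM at ZT12, the low value being ZT12 library 1. For SLC27A2 the log2 fold change was -0.50 (SE 0.32).

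Acyl-CoA ligases, which activate fatty acids, were mostly above 0, though none passed the test. Of 15 tested, 12 had a log2 fold change above 0, and the median was 0.35, where the set as a whole had 104 of 163 above 0 and a median of 0.11. The corresponding median over all genes was 0.00. No ligase reached an unadjusted p under 0.05. ACSL4 (ZJQ013859), which prefers arachidonic acid in mammals, had 53.5, 75.2 and 59.6 CPM at ZT0 and 64.2, 63.1 and 73.4 CPM at ZT12, a log2 fold change of 0.09 (SE 0.20). ACSL1 (ZJQ015443) had 0.72 (SE 0.41), and the second ACSL1 model (ZJQ014922), at 8.80 to 9.19 CPM at ZT0 and 10.7 to 12.5 CPM at ZT12, separated the times with 0.39 (SE 0.26). Among the 5 models of the mitochondrial medium-chain ligase acsf2, 4 were above 0, up to 0.98 (SE 0.47) in ZJQ018343, while the most abundant, ZJQ017729, had -0.35 (SE 0.26). The ligase acsbg2 (ZJQ013038) had -0.54 (SE 0.29).

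The carnitine shuttle, which carries long acyl chains into mitochondria, was near 0. Both models of CPT1A, its rate-limiting outer-membrane enzyme, were tested. ZJQ003251 had 92.8, 60.7 and 108 CPM at ZT0 and 61.0, 81.7 and 63.1 CPM at ZT12, with a log2 fold change of -0.34 (SE 0.25). ZJQ009995 had 0.19 (SE 0.21), the inner-membrane enzyme gene Cpt2 (ZJQ003382) 0.22 (SE 0.25) and CRAT (ZJQ009307), which makes acetylcarnitine, -0.14 (SE 0.22). Of the 2 models of the carrier SLC25A20, the low one (ZJQ003359) was lower in all ZT12 libraries, at 0.366 to 0.777 CPM against 0.845 to 1.32 CPM. Its log2 fold change was -0.80 (SE 0.54). The more abundant one (ZJQ003360), at a mean FPKM of 6.14 against 0.927, had overlapping times and a log2 fold change of 0.08.

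Acyl-CoA oxidation genes had a median log2 fold change of -0.02 over 21 tested genes and 0 at an unadjusted p under 0.05. Acadl (ZJQ004094), the long-chain acyl-CoA dehydrogenase, lay between 44.5 and 59.5 CPM in all 6 libraries and had a log2 fold change of -0.11 (SE 0.18). The very-long-chain enzyme ACADVL (ZJQ013949) had -0.21 (SE 0.29), the medium-chain enzyme Mcad (ZJQ009515) -0.04 (SE 0.34) and the short-chain enzyme Acads (ZJQ025061) -0.04 (SE 0.28). The mitochondrial thiolase gene ACAA2 (ZJQ021664) had -0.65 (SE 0.43, and -1.31 without ZT12 library 2), and its second model (ZJQ021655) had 0.24 (SE 0.35). Amacr (ZJQ013234), which readies branched chains for peroxisomes, had -0.13 (SE 0.21). The value farthest from 0, 1.48 (SE 1.13), belonged to a low second Acadl model (ZJQ003912) at 0 to 4.02 CPM. Genes with all ZT12 libraries above were acdh-11 (ZJQ024387) at 0.47 (SE 0.27) and ilvbl (ZJQ022343) at 0.32 (SE 0.24). The most abundant of the group was far1 (ZJQ012649), which reduces fatty acyl-CoA to the alcohols of ether lipids, at 38.5 FPKM and a log2 fold change of 0.30 (SE 0.22).

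Synthesis, elongation and desaturation genes varied more between the libraries of a time than between times. FASN (ZJQ020672), the fatty acid synthase, had 77.8, 112 and 212 CPM at ZT0 and 228, 88.5 and 72.5 CPM at ZT12. Its highest and lowest values were both at ZT12, and its log2 fold change was -0.04 (SE 0.51). The desaturase fad2 (ZJQ019494) was the most abundant of the group at 34.6 FPKM, with 532, 398 and 523 CPM at ZT0, 493, 407 and 313 CPM at ZT12, and -0.26 (SE 0.22). Another desaturase, fads2 (ZJQ015411), which makes polyunsaturated acids, ran from 6.58 to 66.9 CPM, both at ZT12. The elongase Baldspot (ZJQ015489), named after a fly gene, ran from 85.7 to 186 CPM, again both at ZT12, with 0.05 (SE 0.29). HACD2 (ZJQ019693) and hsd17b12 (ZJQ021626), which act beside the elongases, had log2 fold changes of 0.54 (SE 0.29) and 0.20 (SE 0.36), and the elongase ELOVL7 (ZJQ005342) had -0.80 (SE 0.48). Of 18 tested genes, 0 separated the times, where 12.2% of all tested genes did. Of the 18, 10 (55.6%) had their highest value in ZT12 library 1. That library was the highest in 28.8% of the tested genes of the set and in 17.9% of all tested genes.

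**Figure D3:**
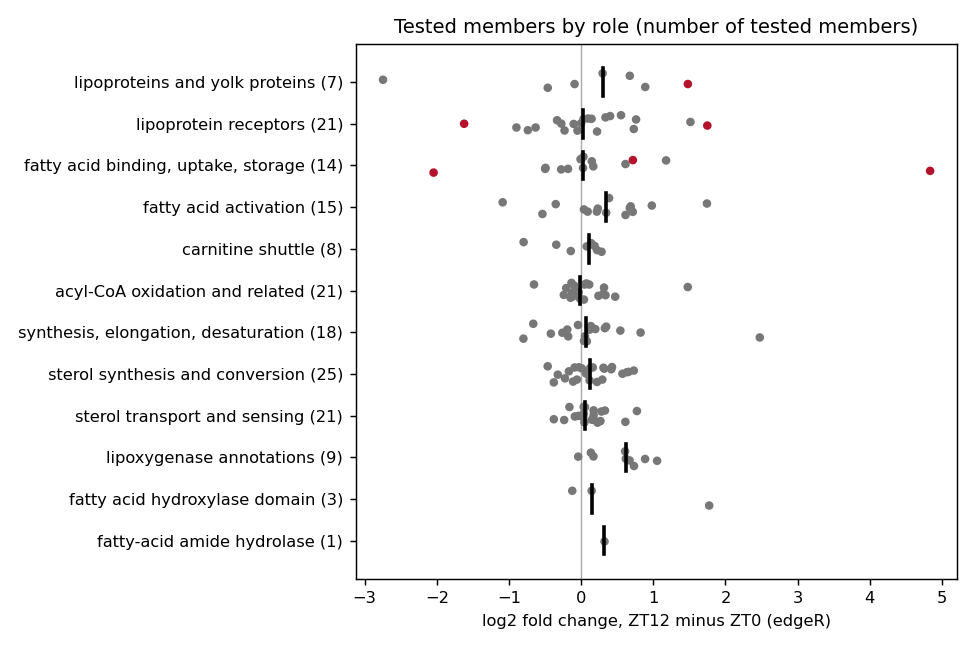
Log2 fold change (ZT12 minus ZT0) from edgeR of the 163 tested genes by role, 1 point per gene, with red for an unadjusted p under 0.05 and a black bar at each group's median. The medians lie between -0.02 and 0.62, most points lie within 1 of 0, and the red points fall among carriers, receptors and lipoproteins.

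Cholesterol synthesis genes showed no difference between the times that passed the test, but 1 library stood above the others in most of the chain. The chain was followed over 16 of its enzymes in pathway order, taking for each the model with the highest mean FPKM. Of these, 10 belong to the set by their descriptions and 6 do not. The 16 were chosen after values were seen. ZT12 library 1 was the highest of the 6 libraries in 14 of 16 enzymes, in 8 of the 10 from the set and in 6 of the other 6. It lay above the gene's own mean in all 16. Over all tested genes, that library was the highest in 17.9%. Its level was 1.13 to 2.56 times the median of the other 5 libraries, with a middle value of 1.97. ZT12 library 3 was the lowest in 7 of 16, where it was the lowest in 17.5% of all genes.

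**Figure D4:**
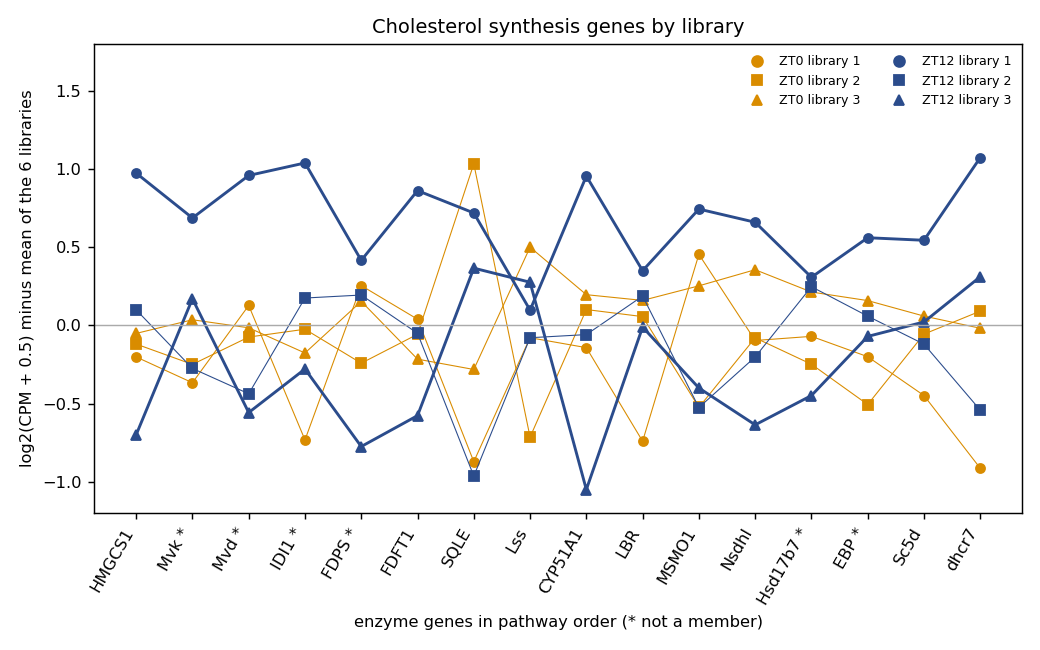
Log2(CPM + 0.5) of 16 cholesterol synthesis genes in pathway order, each minus its mean over the 6 libraries; lines join libraries (thick, ZT12 libraries 1 and 3) and asterisks mark genes outside the set. ZT12 library 1 is highest in 14 of 16 and above 0 in all, and SQLE and Lss are the exceptions.

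The contrast was wide in some enzymes and narrow in others, and those named here were picked after their values were seen. HMGCS1 (ZJQ005333), the cytoplasmic enzyme that makes hydroxymethylglutaryl-CoA, had 20.1, 21.4 and 22.4 CPM at ZT0 and 46.1, 24.9 and 14.1 CPM at ZT12. The highest and the lowest library were ZT12 libraries 1 and 3. FDFT1 (ZJQ019721), squalene synthase and the first step committed to sterols, had 12.3, 11.5 and 10.2 CPM against 22.2, 11.5 and 7.86 CPM. CYP51A1 (ZJQ023202), which demethylates lanosterol, had 35.0, 41.5 and 44.4 CPM against 75.4, 37.1 and 18.4 CPM, a 4.10-fold gap between ZT12 libraries 1 and 3. These 3 genes varied less at ZT0 than at ZT12. Their log2 fold changes were 0.42 (SE 0.40), 0.29 (SE 0.40) and 0.12 (SE 0.45). FDPS (ZJQ022165), farnesyl pyrophosphate synthase and not of the set, showed little of it. It had 77.1, 54.5 and 71.9 CPM at ZT0 and 86.3, 73.9 and 37.5 CPM at ZT12, so that ZT12 library 1 was 1.20 times the median of the others.

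MSMO1, the most abundant enzyme gene of the set, had 322, 163 and 280.0 CPM at ZT0 and 394, 163 and 178 CPM at ZT12. dhcr7 (ZJQ021386), which makes cholesterol from its direct precursor, had 10.4, 21.3 and 19.7 CPM at ZT0 and 42.5, 13.5 and 24.9 CPM at ZT12, with a log2 fold change of 0.66 (SE 0.45) that was 0.18 without ZT12 library 1. Lathosterol oxidase, which acts just ahead of dhcr7, had 0.32 (SE 0.28) in the Sc5d model of the chain (ZJQ016283). A second Sc5d model (ZJQ015296) had 0.73 (SE 0.50) and was lowest in ZT0 library 3 and highest in ZT12 library 3. The exceptions to the pattern were SQLE (ZJQ011831), squalene monooxygenase, highest in ZT0 library 2 at 23.9 CPM, and Lss (ZJQ005854), lanosterol synthase, highest in ZT0 library 3 at 47.2 CPM. The median log2 fold change over the 16 was 0.23, and -0.07 without ZT12 library 1. FASN was also highest in that library. The median deviation of the gut and digestive markers was highest there too, at 0.82, where that of the 16 enzymes was 0.70. In ZT12 library 3 the 2 medians parted, at 0.50 for the markers and -0.34 for the enzymes. The part of these markers in the sterol pattern was not tested.

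Regulators did not share the pattern to the same degree. SREBF1, the transcription factor that drives lipogenic and sterol genes in vertebrates, had 385, 423 and 312 CPM at ZT0 and 449, 384 and 318 CPM at ZT12, so ZT12 library 1 was highest by a small margin. SREBF1 had a log2 fold change of 0.04 (SE 0.20). The gene of its escort protein scap (ZJQ006828) had 16.6, 27.0 and 23.0 CPM at ZT0 and 22.4, 27.7 and 33.8 CPM at ZT12, highest in ZT12 library 3. Nr1h3 (ZJQ010345), the oxysterol receptor LXR-alpha, had 109.9, 74.1 and 71.2 CPM against 101, 107 and 80.1 CPM and a log2 fold change of 0.17 (SE 0.23).

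Sterol transport and sensing genes had log2 fold changes between -0.38 and 0.77 over 21 tested, with 16 above 0 and a median of 0.05. The group also took in SREBF1, scap, ERG28 and models of neutral cholesterol ester hydrolase, and the value of 0.77 came from a hydrolase model. NPC1 (ZJQ019563), the membrane partner of NPC2 in export of cholesterol from lysosomes, lay between 230.2 and 325 CPM, with a log2 fold change of -0.09 (SE 0.19). NPC2 had 708, 274 and 481 CPM at ZT0 and 516, 542 and 452 CPM at ZT12, the spread lying at ZT0, with 0.05 (SE 0.32). All 8 oxysterol-binding protein genes were tested, 6 above 0 and 2 below, with a median of 0.04. Osbpl9 (ZJQ005725) had the smallest p among them, with 8.68, 10.04 and 6.21 CPM at ZT0, 14.97, 13.5 and 9.69 CPM at ZT12 and 0.61 (SE 0.32). Only ZT12 library 3, just below ZT0 library 2, kept its times from separating. ERG28 (ZJQ001091), which in yeast tethers sterol enzymes, had -0.38 (SE 0.29).

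Genes that use or store sterol gave similar values. Soat1 (ZJQ006568), which esterifies cholesterol for storage, had -0.11 (SE 0.26). Of 9 models named for cholesterol 24-hydroxylase, CYP46A1, known from mammalian brain, 7 were tested, 2 above 0 and 5 below, with -0.32 (SE 0.24) in the most abundant (ZJQ018789). nvd-Hp (ZJQ009874), named for the cholesterol desaturase that begins steroid hormone synthesis in insects, had 54.3, 51.5 and 52.1 CPM at ZT0 and 40.9, 43.8 and 50.5 CPM at ZT12. All ZT12 libraries were below, and its log2 fold change was -0.22 (SE 0.18).

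Lipoxygenase-named genes, whose relatives oxidize polyunsaturated fatty acids into signalling lipids, were weakly expressed and mostly above 0. Of 18 models 9 were tested, 8 of them above 0, with a median log2 fold change of 0.62, 0 at an unadjusted p under 0.05 and a median SE of 0.62. The name covers unlike proteins, since the 4 Loxhd1 models carry only a domain in common with the enzymes. Alox5 (ZJQ008173), named for the first enzyme of leukotriene synthesis, was the most abundant at 7.63 FPKM, with 9.49, 7.13 and 7.95 CPM at ZT0 and 20.3, 11.3 and 7.36 CPM at ZT12. Its log2 fold change was 0.67 (SE 0.41), and 0.20 without ZT12 library 1. A second ALOX5 model (ZJQ006864) had -0.04 (SE 0.93), or -2.05 without ZT12 library 2, and 2 of the Loxhd1 models had 0.89 (SE 0.48; ZJQ011169) and 0.17 (SE 0.48; ZJQ020978). An allene oxide synthase-lipoxygenase model (ZJQ008170), a fusion enzyme known from corals, had 0.656, 0.769 and 0.596 CPM at ZT0 and 2.17, 0.998 and 1.01 CPM at ZT12. All ZT12 libraries were above, and the difference was 1.05 on the log2 scale (SE 0.57; adjusted p 0.737 by edgeR).

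The hydroxylase-domain gene FAXDC2 had 4 models. The abundant one (ZJQ017795) lay at 131 to 133 CPM at ZT0 and 113 to 135 CPM at ZT12, and another (ZJQ017617) had 0.15 (SE 0.48). ZJQ017619 had 1.21, 3.59 and 4.72 CPM at ZT0 and 7.65, 1.85 and 23.3 CPM at ZT12, with a log2 fold change of 1.77 (SE 0.86), and 0.60 without ZT12 library 3. FAAH2 (ZJQ023213), which hydrolyses fatty acid amides, had 0.31 (SE 0.38).

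Some models were high in 1 library alone. In 7 of the 217 (3.23%), 1 library had at least 1 CPM and at least 5 times the value of any other. Over the whole table this held for 806 of 30559 models. Among tested genes of the set it held for 4 of 163 (2.45%), against 0.921% of all tested genes. An LRP2 model (ZJQ018816) had 1827 counts (86.8 CPM) in ZT12 library 2, 1 count in ZT12 library 1 and none elsewhere. An allene oxide synthase-lipoxygenase model (ZJQ008255) had 94 counts in the same library and at most 1 in any other. The ligase gene Acsl6 (ZJQ015555) was also high there, at 26.7 CPM against 0.982 to 4.70 CPM. In ZT12 library 1 these were the type 3 carrier, elovl6 (ZJQ020772), an elongase, at 7.24 CPM against at most 1.33 CPM, and Npc1l1 (ZJQ017284), named for the intestinal sterol uptake protein of mammals, at 3.44 CPM against at most 0.685 CPM. The log2 fold change of elovl6 was 2.48 (SE 1.18), and 0.49 without that library. The vitellogenin fragment made up the seventh, in ZT0 library 3.

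**Figure D5:**
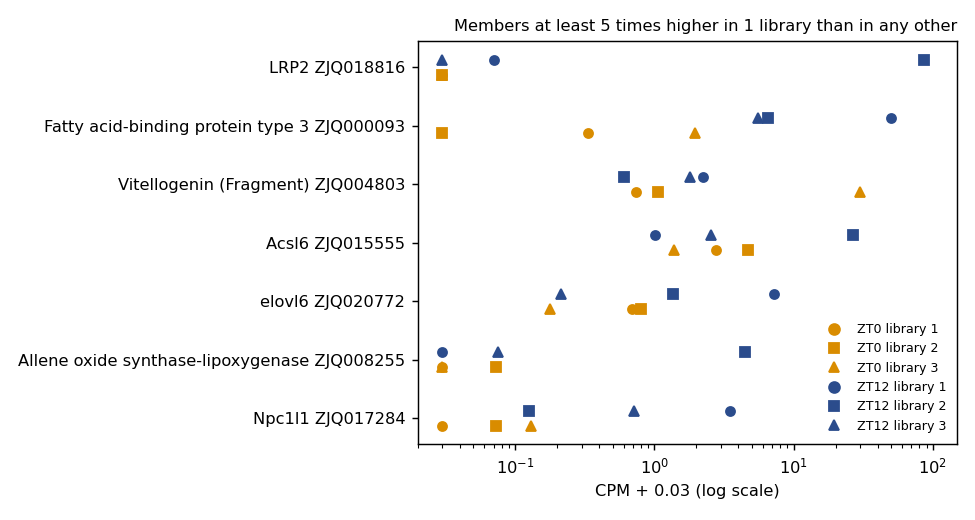
CPM + 0.03 on a log axis of the 7 genes that were at least 5 times higher in 1 library than in any other, with 1 point per library (orange, ZT0; blue, ZT12; the symbol gives the library number). LRP2 ZJQ018816 stands at 86.8 CPM in ZT12 library 2 and at or near 0 in the other 5.

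Lipid genes that the wording left out also had no call. Of 222 such models 172 were tested, 0 were called, and 9 reached an unadjusted p under 0.05, 5 higher and 4 lower, or 5.23%. That share was below the 7.31% of all tested genes. In fatty acid synthesis, 2 of the 4 tested models of acetyl-CoA carboxylase, the enzyme ahead of FASN, had all ZT12 libraries above and the other 2 overlapped. ACAC (ZJQ010867) had 41.4, 38.0 and 36.0 CPM at ZT0 and 55.3, 49.2 and 46.9 CPM at ZT12, a log2 fold change of 0.39 (SE 0.18; adjusted p 0.704 by edgeR). ACACA (ZJQ010865) had 0.69 (SE 0.38). The overlapping models, ZJQ010868 and ZJQ010870, had 0.45 (SE 0.34) and 0.59 (SE 0.46). TECR (ZJQ004776), which closes each elongation cycle, had 0.56 (SE 0.27), also with all ZT12 libraries above. Among 76 tested lipase and glycerolipid genes, phospholipase A2 models differed in sign. A fragment model (ZJQ005155) had 1.92, 4.23 and 4.27 CPM at ZT0 and 0.205, 0.285 and 0.366 CPM at ZT12. Its log2 fold change was -3.60 (SE 0.61), with an adjusted p of 0.109 by edgeR. Another model of the same description (ZJQ011060) had -0.20 (SE 0.50). ZJQ005129 had 4.25 (SE 1.19) with all ZT12 libraries above, and the most abundant, ZJQ005156 at 781 FPKM, had -0.10 (SE 0.33). Among 29 sterol and isoprenoid genes, HSD17B14 (ZJQ011144), a steroid dehydrogenase, had 1.83 (SE 0.46) and cyp17a1 (ZJQ015680), a steroid hydroxylase, -1.81 (SE 0.51), both with times that did not overlap. The 11 tested models of lipid-sensing nuclear receptors, their coactivators and AMP-activated kinase, and the 8 lipid transporters, had 0 at an unadjusted p under 0.05.

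The libraries held coelomocyte transcripts along with markers of other tissues. Echinoidin, a coelomocyte lectin, was represented by 24 models that summed to 3278 to 10056 CPM, and complement C3 by 3 models at 763 to 1853 CPM. No coding model held the word amassin or transglutaminase in its description or symbol, and other names for these proteins were not searched. A further coelomocyte gene family that was searched by name matched no model either. The coelomocyte list also held macrophage mannose receptor models and 26 arylsulfatase models, the latter summing to 1054 to 1265 CPM. Of 40 tested coelomocyte markers, 20 of them arylsulfatases, 0 were called. Gut and digestive enzyme markers were represented by 81 models, 4 of them at 0 throughout, among these PNLIPRP1, a pancreatic lipase-related gene. Of 44 tested, 0 were called, while 15 were higher and 1 lower at an unadjusted p under 0.05, or 36.4% against 7.31% of all genes. Biomineral markers were called in 6 of 11 tested and summed to 416 to 843 CPM at ZT0 and 94.9 to 185.05 CPM at ZT12. No other marker passed in edgeR. Beside the 7.31% of all genes, an unadjusted p under 0.05 was found in 7 of 40 coelomocyte markers, 0 of 20 genes named for testis or germ line, 1 of 26 for muscle and nerve, and 9 of 82 in a broad pigment cell list of sulfotransferases, polyketide synthases and flavin monooxygenases. Their part in the lipid gene values was not tested, and in bulk RNA fewer cells of a type and less RNA per cell cannot be told apart.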

How the data were processed

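RNA was extracted with TRIzol and libraries were made with a VAHTS Universal kit by OE Biotech, per the labels' protocols. fastp, HISAT2 and HTSeq were used, per the submitters' processing notes; genome build, annotation and strand setting are not stated there, so overlapping genes and near-identical copies may share reads. The authors deposited raw whole-number counts per gene and, in 1 table per library, FPKM values. All 145283 FPKM values with counts matched counts divided by library total and 1 length per gene within 0.1%.

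The count test was edgeR 4.0.16 under R 4.3.3 (filterByExpr with minimum count 10 and total 15, TMM scaling, glmQLFit with legacy = FALSE), ZT12 minus ZT0, with Benjamini-Hochberg adjustment over 18456 genes. SE is taken from the fitted change and its F statistic, as the change's size over root F. With 3 libraries a time an exact permutation test cannot go below 0.1. Members, roles, related and marker lists were chosen on names with earlier results of these data known. Named genes were, per role, the 3 tested genes with the highest mean FPKM and the 3 with the smallest p among those at a mean of 1 CPM or more; those outside it were chosen after their values were seen. On simulated counts (17777 genes) 9 of 96 calls were false. Alternatives were DESeq2 1.42.0, limma 3.58.1 (voom, and trend on log2 FPKM plus 1 or 0.1), RLE or no scaling, no filter, legacy = TRUE, a replicate block and leaving out each library. Some genes are not reported here. No coordinates or sequences were analysed here.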

Additional observations from a re-analysis of the deposited data

How the results depend on the processing

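Over all genes, calls numbered 215 with DESeq2, 10 with legacy = TRUE, 0 with limma-voom (1078 at an unadjusted p under 0.05), 13 with the replicate block and 0 to 24 with 1 library left out. In the lipid set DESeq2 called 2 and every other alternative 0. Libraries that share a number did not deviate together (correlations -0.05, 0.02 and -0.001). Such correlations cannot show whether equal numbers share an animal or a batch, so pairing stayed unknown. With the block 0 genes of the set were called. Without the filter, 11 genes of the set (5.21%) were at an unadjusted p under 0.05 by edgeR, against 6.78% of all genes. With 1 library left out such genes numbered 7 to 17. Without ZT0 library 2 there were 17 of 169, or 10.1%, against 9.26% of all genes. Without ZT12 library 2 there were 13 (7.83%, against 8.08% of all genes). Without ZT12 library 3 there were 11 (6.59%, against 7.79% of all genes).

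The set's median of 0.11 became 0.22 with plain library sizes and 0.21 with log2(FPKM + 0.1), where the median of all genes was 0.12 and 0.11. It ran from 0.07 to 0.16 with 1 library left out. Medians by role moved with plain library sizes to 0.11 (oxidation) and 0.45 (activation), with FPKM + 0.1 to 0.49 (activation) and 0.28 (sterol transport), with FPKM + 1 to 0.24 (lipoxygenases) and 0.21 (sterol transport), and without the filter to 0.47 (receptors), 0.67 (lipoproteins) and 0.95 (FAXDC2). With 1 library left out they ran from -0.11 to 0.16 (carnitine shuttle), -0.30 to 0.68 (lipoproteins), 0.45 to 0.96 (lipoxygenases) and -0.12 to 0.24 (sterol synthesis). The cause was not tested.

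Of 56 named genes, 20 changed sign under at least 1 of 15 alternatives, 13 of them only with 1 library left out. Leaving out 1 library moved the fold of 11 of the 56 by over 1.5 times. Plain library sizes gave 0.068 for MSMO1, 0.0018 for Acadl ZJQ004094, 0.094 for ALOX5 ZJQ006864, 0.073 for LPA ZJQ009067, 0.0015 for Amacr and 0.036 for NPC1. FPKM + 0.1 and FPKM + 1 gave 0.0045 and 0.0043 for Acadl, 0.29 and 0.29 for that LPA, 0.000665 and 0.000541 for ZJQ013234 Amacr, and 0.045 and 0.043 for NPC1. DBI had -0.019 with limma-voom and -0.016 with the block, and that LPA 0.18 and 0.17. With 1 library left out, ranges were -0.55 to 0.027 (FABP1), -0.24 to 0.41 (NPC2), -0.57 to 0.17 (MSMO1), -0.037 to 0.38 (Cpt2), -3.30 to 0.81 (vitellogenin ZJQ004803), -0.29 to 0.25 (DBI), -2.05 to 0.51 (ALOX5), -0.50 to 0.68 (LPA ZJQ009067), -0.090 to 0.59 (LPA ZJQ016134), -0.30 to 0.0026 (CRAT), -0.012 to 0.24 (ACSL4), -0.22 to 0.30 (Baldspot ZJQ015489), -0.49 to 0.47 (FAXDC2 ZJQ017617), -0.081 to 0.16 (SREBF1), -0.20 to 0.058 (NPC1), -0.14 to 0.76 (Loxhd1 ZJQ020978), -0.11 to 0.43 (hsd17b12) and -0.028 to 0.56 (FAAH2).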
